A study of Mus musculus with 8 samples.

Results

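DNA replication and S phase genes were examined in RNA-seq of a murine spleen stromal cell line. The set was chosen by gene symbol. All 59 genes on the list had a row among the 12589 genes of the table, and they cover origin licensing, the replicative helicase, the clamp and polymerases, nucleotide supply, and the E2F factors, cyclins and kinases of the G1/S transition. The cells belong to 1 line, mSSC-YFP, immortalized spleen stromal cells that carry a yellow fluorescent protein. They grew in medium with fetal bovine serum, the same for both groups, and received either the vehicle DMSO (4 samples) or BMS493, an inhibitor of retinoic acid (RA) signaling (4 samples), for 48 h. The labels do not say whether the samples of a group were separate cultures.

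The only measurement used here is the authors' mean log2 normalized expression of each gene, taken over all 8 samples of both treatments. It has no SD and no n per group. Single samples were not analysed here. The table does not give the depth of single libraries. No effect of BMS493 on these genes is given, and no difference between levels was tested against the spread of samples. The text therefore describes how strongly each gene was expressed in the line. Between genes, levels were compared per kilobase. This level is the mean log2 expression minus the log2 length in kilobases of the longest annotated transcript. For Mcm2, Rrm1, Prim2, Ung and Cdk2 that transcript is a model with only 1 exon. It has 2 exons for Ccnd3 and 3 for Pola2 and Tk1. For these genes the length used may differ from that of the spliced mRNA. Over 12387 genes with a length, the median level per kilobase was 3.28, with quartiles of 1.84 and 4.57.

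Replication begins in G1, when the origin recognition complex (ORC), Cdc6 and Cdt1 load the ring-shaped MCM2-7 helicase onto origins. Cyclin-dependent kinases (CDKs) and Dbf4-dependent kinase then turn the ring into an active helicase with Cdc45 and GINS, and polymerases copy the unwound strands behind it. Most of these genes are known targets of E2F factors, which the retinoblastoma protein holds back until cyclin D-Cdk4/6 and cyclin E-Cdk2 phosphorylate it. Stromal cells of the spleen are largely quiescent in the resting tissue, whereas immortalized lines cycle in culture.

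The line carried most markers of fibroblastic stroma. Of 10 such markers 9 had a row, all but Lum, and 8 lay above the median of all genes per kilobase. The highest was Col1a1, the main chain of collagen I, at a mean log2 expression of 13.29. Pdgfra lay below that median, at 2.47 per kilobase. None of 6 B cell markers and none of 6 erythroid markers had a row. Of 6 T cell markers only Lck had one (0.12), of 6 myeloid markers only Cd68 (1.36), and of 5 endothelial markers Pecam1 and Kdr, with Kdr the higher at 2.83. Epithelial Epcam had no row, Krt8 and Krt18 were at 1.55 and 0.31, but Cdh1, which encodes the epithelial adhesion protein E-cadherin, was at 8.03.

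As a set, the replication and S phase genes lay in the upper part of the table. Their median level per kilobase was 4.17, which is 0.89 above the median of all genes on the log2 scale. Of the 59 genes, 46 lay above that median, 25 above the upper quartile and 3 below the lower quartile. The range was wide, from 0.35 for the flap endonuclease Fen1 to 9.86 for the kinase Cdk4. The highest 5 in this order were Cdk4, Ccnd1, Ccnd2, Cdkn1a and Rrm1. These are a G1 kinase, its cyclins, a CDK inhibitor and the large subunit of ribonucleotide reductase. On this scale none of the 5 is a part of the replication fork, but the order depends on the length used. Per kilobase of the union of all exons, Mcm6 of the helicase (5.74) lay above Rrm1 (5.52). Without division by length Mcm6 ranked 5 and Cdkn1a 6 among the 59 genes.

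**Figure D1:**
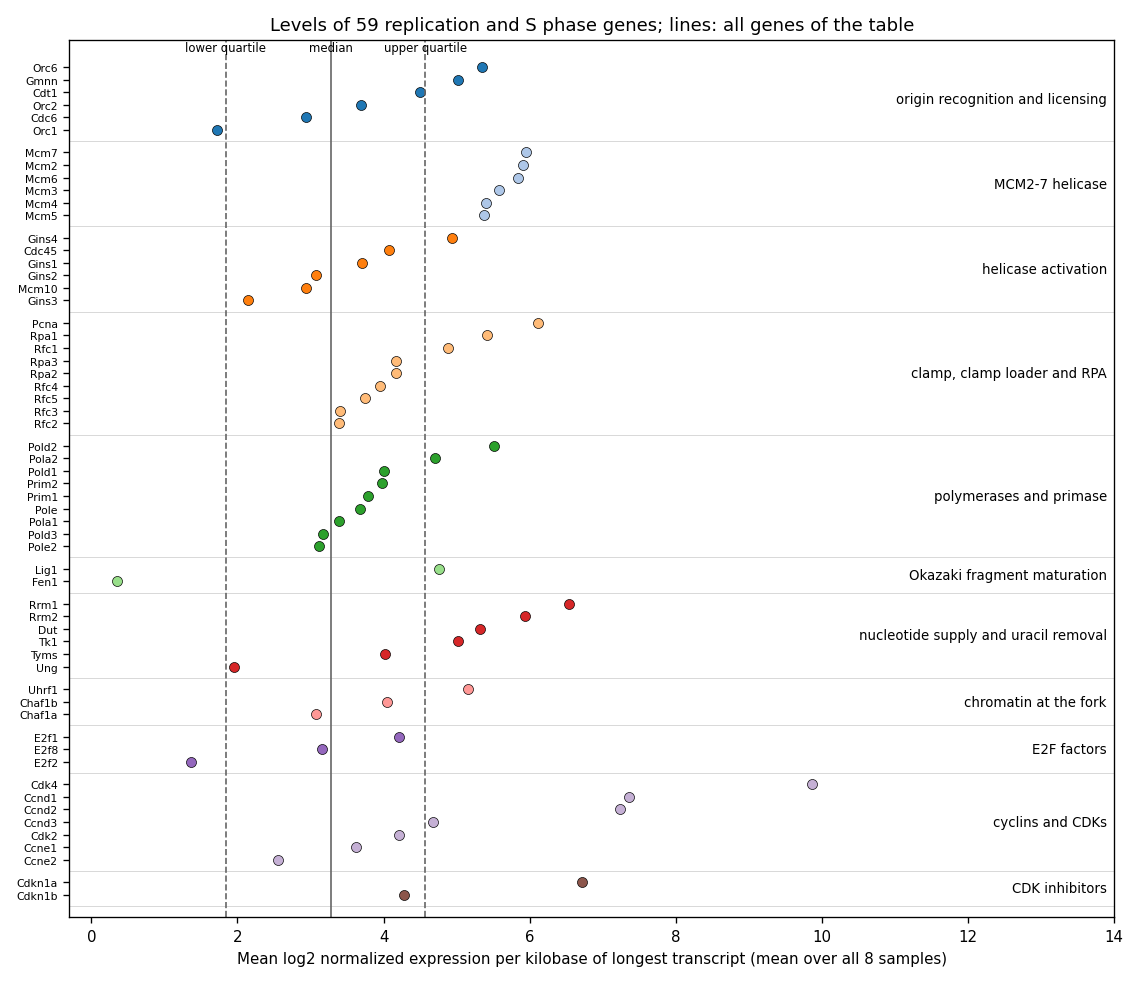
Mean log2 normalized expression per kilobase (x axis) of each of the 59 genes (points, colored by class), with the quartiles and the median of all genes as vertical lines. The 6 MCM2-7 genes sit close together above the upper quartile, whereas the cyclins and CDKs run from 2.55 to 9.86 and Fen1 stands at the far left.

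The promoters of these genes are shown first, since E2F sites are the sequence feature for which the family is known. RefSeq windows on GRCm38.p6, from 250 bases before to 50 bases after a gene start, were found for 48 of the 59 genes, 58 windows in all. The E2F site was searched as TTTGGCGC, TTTCGCGC, TTTGCCGC or TTTCCCGC on both strands. At least 1 match stood in 17 of the 58 windows (29.3%). Of all 32851 windows of the same length 2.26% held one. Among the 11969 windows whose gene had a row the share was 3.99%. The 17 genes with a match spread over most of the machinery. Matches stood in 4 of 5 MCM2-7 genes with a window, in 3 of 5 licensing genes and in 4 of 7 polymerase and primase genes, but in 0 of 6 nucleotide supply genes and 0 of 2 CDK inhibitors.

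The MCM2-7 genes held 9 of the 23 matches, and examples from them and from the licensing genes, the first to act at an origin, are printed here. Each line gives up to 30 bases of the gene's strand, 5′ to 3′, with the match in capitals, and a match to the opposite strand reads as the reverse complement.
Mcm3 (chr1:20820275-20820304, minus strand): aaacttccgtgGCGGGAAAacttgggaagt
Mcm6, distal (chr1:128359797-128359826, minus strand): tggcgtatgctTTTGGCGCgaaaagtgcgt
Mcm6, proximal (chr1:128359734-128359763, minus strand): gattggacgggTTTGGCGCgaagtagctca
Mcm7 (chr5:138171849-138171878, minus strand): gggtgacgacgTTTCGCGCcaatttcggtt
Mcm5 (chr8:75109345-75109374, plus strand): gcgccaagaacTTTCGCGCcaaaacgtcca
Orc1 (chr4:108579416-108579445, plus strand): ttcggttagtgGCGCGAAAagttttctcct
Cdc6 (chr11:98908002-98908031, plus strand): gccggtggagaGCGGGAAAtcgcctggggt
Cdt1 (chr8:122568036-122568064, plus strand): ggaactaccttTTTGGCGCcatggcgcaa

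Counted from the gene start, the first base of the printed Mcm5 match lay at -153 and that of Orc1 at -27. In Mcm6, 3 matches stood at -110, -106 and -47, of which the first 2 overlap on opposite strands. Overlapping pairs on opposite strands also stood in Mcm5. In Mcm7 a match lay at -165 and another at 17 bases after the start, and Mcm3 held its matches at 20 and 39 bases after the start. Fork genes outside the helicase held them too, and the following are shown because they lie within 30 bases of a start.
Rfc3 (chr5:151651200-151651229, minus strand): acgtcgcacgcTTTCGCGCtcgcgggaaaa
Pold3 (chr7:100121467-100121496, minus strand): gagcgaagctgTTTCCCGCcggcgggagct
Pole2 (chr12:69228162-69228191, minus strand): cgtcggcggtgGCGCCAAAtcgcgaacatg
Lig1 (chr7:13278841-13278870, plus strand): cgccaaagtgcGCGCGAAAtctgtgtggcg

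In total the 17 genes held 23 matches, 10 on the gene's own strand, and 14 of them began between 100 bases before and 50 bases after the start. The CCAAT box, bound by the factor NF-Y and searched as CCAAT, stood in 56.9% of the members' windows and in 37.4% of all windows. For the GC box, GGGCGG, the shares were 74.1% and 35.7%, but 63.6% among genes in the table, whose windows were also about as rich in G and C (median 61.0% against 61.7% for the members). The CHR element TTTGAA, known from genes of G2 and mitosis, was no more frequent in the members' windows than in all windows (12.1% and 17.9%). Among genes in the table its share was 11.8%, close to that of the members. The level did not separate genes with and without an E2F match. The median per kilobase was 4.01 over the 17 genes with one and 4.22 over the 31 without, and the ranges overlapped. A match is a string of letters in a window and does not show that a factor binds there. Nor does the lack of the exact E2F words searched show that a gene has no E2F site.

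**Figure D2:**
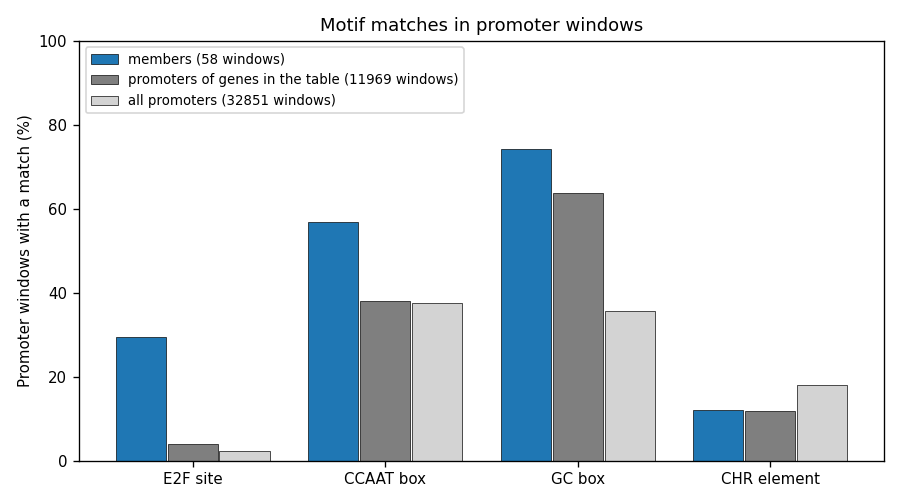
Share of promoter windows (y axis, percent) with a match to each of 4 motifs, for the members, for genes of the table and for all windows. The E2F site stands in 29.3% of the members' windows and 2.26% of all windows, and the GC box in 74.1% and 35.7%.

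**Figure D3:**
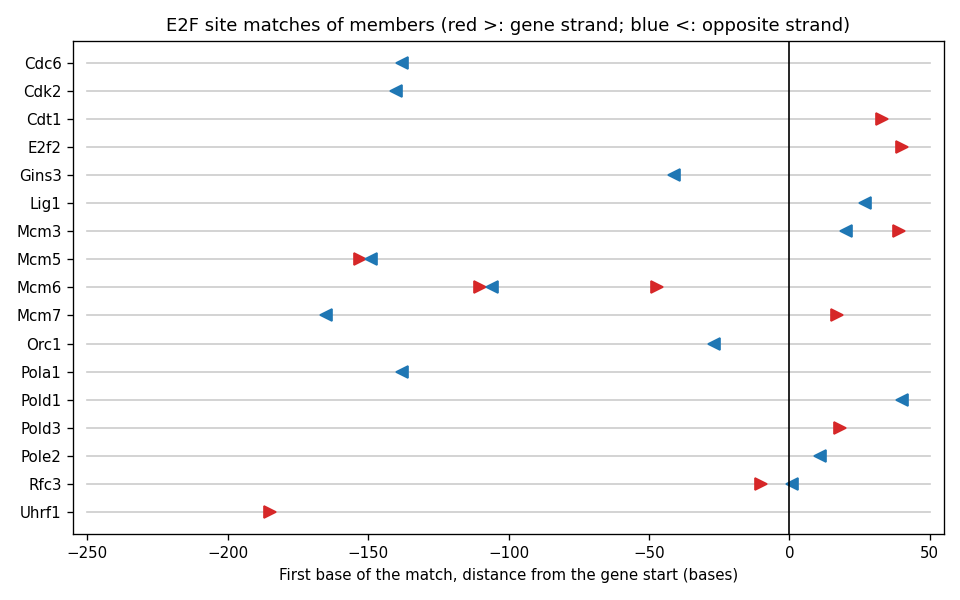
Distance of each of the 23 E2F matches from the gene start (x axis, bases) in the 17 genes that hold one, with the strand given by the direction and color of the marker. The matches run from -185 in Uhrf1 to 40 in E2f2 and Pold1.

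Of the origin recognition subunits, Orc6 was the highest at 5.34 per kilobase and Orc1 the lowest at 1.72, and Orc2 lay between them at 3.69. Orc1, whose protein is degraded after G1 in human cells, was thus 12.3-fold below Orc6 and under the lower quartile of all genes. The other subunits were Orc3 at 3.47, Orc4 at 2.85 and Orc5 at 2.71. The loading factor Cdc6, an ATPase that joins ORC in G1, was at 2.94. Cdt1, which brings the MCM ring to ORC, was at 4.49. Gmnn (geminin), the inhibitor that sequesters Cdt1 after S phase has begun, was at 5.01, which is 1.44-fold above Cdt1. With coding length Gmnn (5.88) stayed above Cdt1 (5.18). Without division by length the order turned, with Cdt1 at 5.92 and Gmnn at 5.19.

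The genes of the MCM2-7 ring were close to each other. Mcm7 was at 5.95 per kilobase, Mcm2 at 5.91 and Mcm6 at 5.84. Slightly below were Mcm3 at 5.58, Mcm4 at 5.40 and Mcm5 at 5.38. The highest and the lowest subunit of this hexamer, which holds 1 copy of each, differed by 0.57 on the log2 scale, or 1.48-fold, and all 6 lay above the upper quartile of all genes. Their median of 5.71 was 2.43 above the median of all genes. The related genes Mcm8 (1.98) and Mcm9 (1.92), which act in homologous recombination rather than in the ring, were well below. Mcmbp, which binds and chaperones MCM subunits, was at 4.26.

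The genes that turn the loaded ring into a helicase were lower. Cdc45 was at 4.08 and Mcm10, which binds the helicase at its activation, at 2.94. GINS holds 1 copy of each of 4 subunits, yet their levels per kilobase spread over 2.80 on the log2 scale. Gins4 was at 4.94, Gins1 at 3.70, Gins2 at 3.07 and Gins3 at 2.14. The median of this class, 3.39, was 0.10 above that of all genes, but at -0.0491 relative to it with coding length and at -0.21 without Gins4, its highest member. Of the kinase that triggers the step, the activator Dbf4 was at 5.18 and the catalytic subunit Cdc7 at 2.41. The firing factors were also spread, with Topbp1 at 4.99, Mtbp at 3.99, Recql4 at 2.10 and Ticrr at 1.93.

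**Figure D4:**
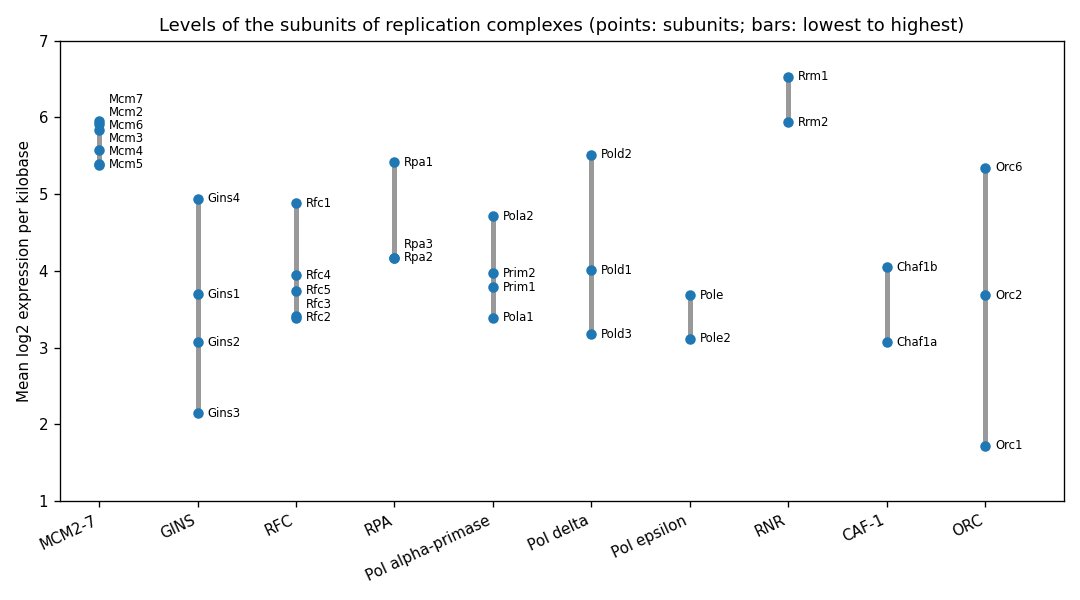
Mean log2 expression per kilobase (y axis) of the subunits of 10 complexes (points) with bars from the lowest to the highest. The MCM2-7 subunits span 0.57, whereas GINS spans 2.80 and the listed ORC subunits 3.63.

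Behind the helicase, single-stranded DNA is covered by replication protein A (RPA), and the sliding clamp Pcna is loaded by replication factor C (RFC). Pcna was at 6.12 per kilobase, the highest of this class. Rpa1, the large DNA-binding subunit, was at 5.41, and Rpa2 and Rpa3 were both at 4.17. Without division by length the RPA subunits span 4.14, since Rpa3 has a short transcript, and the difference per kilobase was 1.24. Rfc1, the largest RFC subunit, was at 4.88. On this scale the small subunits were close to each other, with Rfc4 at 3.94, Rfc5 at 3.74, Rfc3 at 3.41 and Rfc2 at 3.39. With coding length they were further apart and Rfc4 was the lowest (4.15), below Rfc3 (4.76), Rfc5 (5.62) and Rfc2 (5.64). Without division by length they ran from 4.30 for Rfc4 to 5.71 for Rfc2. All 9 genes of the class lay above the median of all genes.

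The polymerases were nearer to the middle of the table, with a median of 3.78 and 7 of 9 genes above the median of all genes. With coding length in place of the longest transcript, the class median was at -0.226 relative to all genes, against 0.50 here. In polymerase alpha-primase, which starts each new strand, Pola2 was at 4.71 and the catalytic Pola1 at 3.39. The primase subunits Prim2 and Prim1 were at 3.97 and 3.78. For polymerase delta, which copies the lagging strand, the accessory subunit Pold2 was at 5.51, the catalytic Pold1 at 4.01 and Pold3 at 3.17. The small subunit Pold4 was at 4.68. The leading-strand polymerase epsilon was alike in its large subunits, with Pole at 3.68 and Pole2 at 3.11. Its histone-fold subunits were at 4.70 (Pole3) and 3.91 (Pole4). On this scale no catalytic subunit was the highest of its polymerase except Pole, and there only among the 2 subunits on the list. Per kilobase of the union of all exons, the catalytic primase subunit Prim1 (3.48) lay above Pola2 (3.18) and was the highest of polymerase alpha-primase. With coding length Pola2 (5.39) stayed above Prim1 (5.10).

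Okazaki fragments are trimmed by the flap endonuclease Fen1 and sealed by DNA ligase I. Lig1 was at 4.75 per kilobase, whereas Fen1 was at 0.35, the lowest of all 59 genes, with a mean log2 expression of 1.60. The Fen1 gene lies on chromosome 19 from 10199132 to 10204169 of GRCm38, minus strand. There 84.2% of its exon bases also lie in exons of Tmem258 and Gm10143 on the opposite strand, and Tmem258 had a mean log2 expression of 6.32. The methods name a stranded library kit, but whether reads were counted by strand is not given in the sources used here, so it is open from these sources whether reads of Fen1 and of Tmem258 were told apart. Dividing the same mean by only the exon bases that no other gene shares puts Fen1 at 2.98. That value takes every counted read to lie in those bases, which is not known. The part of the overlap with Tmem258 and Gm10143 in the level was not tested.

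The same check was made for every member. Of the 59 genes, 24 shared exon bases with another gene (40.7%, against 35.8% of all matched genes), and 3 shared over 50% (5.08% against 1.55%). Beside Fen1 these were Gins2, with 67.3% in exons of Gse1, and Chaf1a, with 52.5% in exons of Ubxn6. Per kilobase of unshared exon, the same mean is likewise divided by fewer bases. This put Gins2 at 4.61 and Chaf1a at 3.95, against 3.07 and 3.07 per kilobase of the longest transcript. The spread of GINS per kilobase of unshared exon was 2.90. Neither its highest gene, Gins4, nor its lowest, Gins3, shared exon bases. The cyclin and kinase genes at the top of the order had smaller shares, 23.4% for Ccnd1, 19.7% for Cdk4 and 7.86% for Ccnd2.

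**Figure D5:**
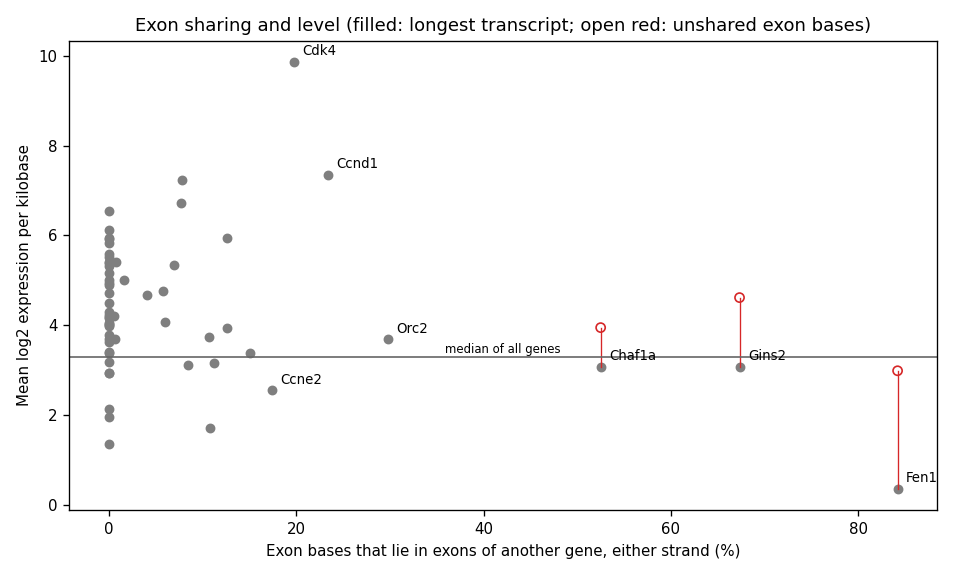
Share of exon bases that lie in exons of another gene (x axis, percent) and mean log2 expression per kilobase (y axis) of the 59 genes, with open red circles for the level per kilobase of unshared exon in the 3 genes above 50%. Fen1, at 84.2%, goes from 0.35 to 2.98 between these scales, which divide the same mean by different lengths. The horizontal line is the median of all genes per kilobase of longest transcript and does not apply to the open circles.

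Nucleotide supply was among the strongest classes, with a median of 5.16 per kilobase. Ribonucleotide reductase, which makes deoxynucleotides from ribonucleotides, was high in both subunits. The large subunit Rrm1 was at 6.53 and the S phase subunit Rrm2 at 5.93. Per kilobase of the union of all exons this order turned, with Rrm1 at 5.52 and Rrm2 at 5.60. Rrm2b, the p53-induced form of the small subunit, was at 1.88. For thymidine, the salvage kinase Tk1 was at 5.02 and thymidylate synthase Tyms at 4.02, and Dtymk, the next kinase of the same route, at 5.97. Dut, which removes dUTP before it can be incorporated, was at 5.31, but the uracil glycosylase Ung, which removes uracil from DNA, was at 1.95, 10.3-fold below Dut. Samhd1, which degrades deoxynucleotides, was at 5.90. Nme2 was the lowest of the supply genes outside the list at 1.57, with 48.9% of its exon bases shared, and Nme1 was at 4.73.

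On the newly made strands, CAF-1 deposits histones and Uhrf1 guides Dnmt1 to copy DNA methylation. Uhrf1 was at 5.15 and Dnmt1 at 5.54, a difference of 1.31-fold. Chaf1b was at 4.05 and Chaf1a at 3.07, the latter with the exon overlap given above. This order stayed with coding length (4.77 and 4.57) and with the union of exons (3.32 and 2.87). It turned with unshared exon bases (3.32 and 3.95) and without division by length (5.55 and 6.02). Of the 7 other chaperone and maintenance genes, all lay above the median of all genes. The highest were Rbbp7 (7.04), Rbbp4 (5.77) and Dnmt1, and the lowest Asf1a (3.81), Slbp (4.16) and Asf1b (4.62). Asf1a shared 48.0% of its exon bases with another gene. Rbbp4 and Rbbp7 also belong to other chromatin complexes.

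Among the E2F factors, the activator E2f1 was at 4.22 per kilobase and E2f2, also an activator, at 1.36, a 7.25-fold difference. E2f8, a repressor whose gene E2F1 itself induces, was at 3.16, and its relative E2f7 at 3.13. E2f4, which acts with the pocket proteins in resting cells, was the highest of the family at 5.17, and E2f3 was at 3.10. The dimerization partner Tfdp1 was at 5.74. Of the pocket proteins, Rbl2 was at 3.43, Rbl1 at 3.08 and Rb1, the retinoblastoma gene, at 1.95.

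Cdk4 and the D-type cyclins Ccnd1 and Ccnd2 were the highest 3 of the 59 genes per kilobase. Cdk4 (chromosome 10) had a mean log2 expression of 10.90, at percentile 99.8 of the table. Its partner cyclins Ccnd1 and Ccnd2 were alike, at 7.35 and 7.23 per kilobase, whereas Ccnd3 was at 4.68, 6.38-fold below Ccnd1. Cdk6, the other partner of the D-type cyclins, was at 0.98, the lowest of its list, so that the pair differed by 8.88 on the log2 scale. The longest annotated Cdk6 transcript is long, and without division by length the levels were 10.90 and 4.51. Cyclin E and its kinase were lower, with Cdk2 at 4.21, Ccne1 at 3.62 and Ccne2 at 2.55. Other cell cycle genes of the same list ranged widely. The CDK adaptor Cks1b was at 6.51, Cdk1 at 5.81 and the S phase cyclin Ccna2 at 5.32. The phosphatase Cdc25a, which activates Cdk2, was at 3.92, and Skp2, which targets p27 for degradation, at 2.10.

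The CDK inhibitors on the list differed 5.38-fold. Cdkn1a, which encodes p21, was at 6.71 per kilobase, at percentile 95.3 of all genes. Cdkn1b, which encodes p27, was at 4.28, below the upper quartile of all genes. Outside the set, Cdkn2a was the highest of its list at 6.996. The locus encodes both the Cdk4/6 inhibitor p16 and Arf, which the value does not separate. The other inhibitors were lower, with Cdkn2d at 3.77, Cdkn2b at 3.75, Cdkn2c at 3.30 and Cdkn1c at 1.53.

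The other genes of the pathway were set beside the list. All 70 genes on 4 further lists had a row, with a median of 3.75 per kilobase against 4.17 for the 59 members, and 43 of them lay above the median of all genes. For the 30 other replication genes the median was 3.45. The highest of these were Top2a (6.77), the topoisomerase that resolves sister DNA before mitosis, Chtf8 (5.90), a subunit of an alternative clamp loader, and Dbf4. The lowest were Dscc1 (1.18), a subunit of the same clamp loader, Mcm9 and Ticrr. Of the exon bases of Chtf8, 91.8% also lie in exons of another gene, so its level has the same limit as that of Fen1. The 12 other supply genes had a median of 3.76 and the 21 other E2F, pocket protein, cyclin and CDK genes 3.46.

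Neighbouring genes were read from the same annotation, since several replication genes start head to head with another gene. Of the 59 members 12 (20.3%) had a protein-coding gene on the opposite strand whose start lay within 1000 bases, against 16.3% of all matched genes. Mcm4 and Prkdc, the catalytic subunit of DNA-dependent protein kinase, start 466 bases apart, and their mean log2 expression was 7.24 and 4.46. Orc1 and the splicing gene Prpf38a start 87 bases apart, with 3.31 and 5.30. Pole and the peroxisomal gene Pxmp2 start 120 bases apart, with 6.52 and 0.29. In these pairs neither partner was the higher one throughout. The starts of Rpa1 and Smyd4 are 109 bases apart and those of Gins1 and Abhd12 659, and in the Rpa3 pair with Umad1 115 bases separate them. In the remaining pairs, Orc6 with Vps35, Mcm7 with Ap4m1, Cdc45 with Ufd1, Fen1 with Tmem258, Tk1 with Afmid and Cdk2 with Pmel, the annotated 5′ ends overlap.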

How the data were processed

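RNA-seq was made from 4 DMSO and 4 BMS493 samples of mSSC-YFP cells. According to the study's methods and the submitters' processing notes, the authors checked reads with FastQC, aligned them to mm10 with STAR 2.3.0e and kept unique alignments. Rsubread gave the counts per Ensembl gene, which were normalized by trimmed means of M-values, and limma was used for the test. The protocol in the labels describes amplification for arrays. The deposited table of 12589 genes holds, per the file headers, the mean log2 normalized expression over all samples and 4 columns of the authors' own comparison (log2 fold change, t, p-value and adjusted p-value of BMS493 against DMSO). Those 4 columns were not used here, so no treatment effect is given. Columns of per-sample values that were left aside numbered 0. The mean is on a log2 scale of the authors' deposited values with decimal commas, and 2 to its power sums to 989369 over the table. A filter on low genes is not given in the sources used here.

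Gene symbols were looked up in GENCODE M21 (GRCm38), 11783 directly and 604 through 1 RefSeq synonym. Levels were divided by the longest transcript in kilobases. Exon overlap was counted on the union of exons, on either strand. Promoter windows were RefSeq's. The motif search recovered words planted in simulated sequences of A and T, in which the words cannot otherwise occur. The length correction was checked on simulated levels as arithmetic only, which does not test the transcript lengths. Python 3.11.15, numpy 2.4.6 and pandas 2.3.3 were used. The members and lists were chosen with earlier results of these data known. Every member is named, and of each further list the 3 highest and 3 lowest genes. Some others were chosen after their values were seen. The planned test of BMS493 against DMSO was not run, since it needs values of single samples. Alternatives were other length models, leaving out a class's highest member and other motif settings, and, chosen after seeing the data, unshared exon bases and leaving out the genes that share over 50% of them.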

Additional observations from a re-analysis of the deposited data

How the results depend on the processing

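A value was taken as moved when it differed from the reported one by over 1.5-fold, since no spread between samples was available. Of 99 alternatives 71 stayed within this, 22 moved and 6 turned the sign. Class medians are given relative to the median of all genes, on the log2 scale. With coding length, MCM2-7 was at 1.63, helicase activation at -0.0491, polymerases and primase at -0.226, Okazaki fragment maturation at -1.37, E2F factors at -0.872, cyclins and CDKs at 2.27 and CDK inhibitors at 3.48. Without the highest member, helicase activation was at -0.21, Okazaki fragment maturation at -2.93, E2F factors at -1.02 and CDK inhibitors at 1.00. With the union of exons cyclins and CDKs were at 0.643, and with no division by length E2F factors were at 0.0591. With unshared exon bases, Okazaki fragment maturation was at 0.783 and cyclins and CDKs at 0.633, and without genes sharing over 50% of exon bases Okazaki fragment maturation was at 1.47. The classes near the median of all genes (helicase activation, polymerases and primase, E2F factors) thus have no fixed side, and the 2 genes of Okazaki fragment maturation depend on Fen1.

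The range inside GINS was 1.85 with coding length and 1.89 with no division by length, that of RFC 2.83 with no division, and that of RPA 1.84 with the union of exons, 4.14 with no division and 1.85 with unshared bases. The share of member windows with an E2F match was 17.2% in the 250 bases before the start, 12.1% for TTTGGCGC alone and 13.8% for TTTCCCGC alone. For all windows it was 0.514% and 1.07% for these words, and 3.99% among genes of the table. No paired analysis was possible because the analysed column is a mean over all samples. For the same reason no replicate could be left out.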
